A study of Mus musculus with 5 samples.

Results

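Immune cells read many surface receptors through a short signal called the immunoreceptor tyrosine-based activation motif, or ITAM. The genes described here encode the parts of that route that act together in osteoclast precursors: the ITAM adaptors Tyrobp (DAP12) and Fcer1g (the Fc receptor gamma chain), the kinases Syk, Btk and Lyn, the adaptor Blnk, and the phospholipase Plcg2. They were picked by gene symbol in the platform annotation, with every probe set so named. Earlier results of these data were known when the genes were chosen. Of the 7 genes, 6 were found among the 8251 genes named on the array, with 10 probe sets in all. Lyn was not analysed here. On GRCm38.p6 (RefSeq), Tyrobp lies at chr7:30413782-30417582, Fcer1g at chr1:171229572-171234349, Syk at chr13:52582610-52648792, Btk at chrX:134542334-134583628 and Plcg2 at chr8:117498275-117635142.

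The study hybridised 5 mouse co-cultures to 1 array each. In order, they were Fos-/- splenocytes expressing deltaNFAT, Fos-/- splenocytes expressing GFP (green fluorescent protein, the virus control), Fos-/- splenocytes without virus, Fos+/+ bone marrow cells and Fos+/+ splenocytes. Fos is part of AP-1, a transcription factor that osteoclasts, the bone-resorbing cells, need in order to form. Every dish, controls included, also held stromal ST2-T cells, was given dexamethasone with 1,25-dihydroxyvitaminD3, and gave RNA of both cell kinds after 6 days. Animal ages, virus doses and the makeup of the deltaNFAT construct were not given in the sources used here. With 1 array per group there is no replicate error, no test and no p-value, and a fold compares single arrays.

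In an ITAM-coupled receptor the receptor chain binds its ligand and the adaptor chain carries the signal. Src family kinases such as Lyn phosphorylate the adaptor's ITAM, Syk docks on it, and Syk then phosphorylates scaffold proteins such as Blnk. On that scaffold Btk activates Plcg2, whose product releases calcium, and calcium activates calcineurin and through it the NFAT transcription factors. In mouse osteoclast precursors this route works beside the receptor RANK to raise Nfatc1, the NFAT member that drives osteoclast differentiation. In B cells the same Blnk, Btk and Plcg2 proteins serve the B cell receptor.

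Values are intensities on a linear scale after background subtraction, so a dim probe set can read below 0. A floor of 19.8 was set, and a count of higher or lower genes takes those that differ by 2-fold or more between arrays with the brighter array at 39.6 or above. "At least" marks folds whose dimmer array did not clear the floor. Levels of different probe sets cannot be set against each other. The floor was passed by 7282 to 7782 probe sets per array, out of 12488. The 1st percentile of an array lay between -133 (bone marrow) and -77.6 (deltaNFAT), which gives a scale for the noise of dim values. Over genes with a pair of bright probe sets, the log2 ratios of both probe sets differed by a median of 0.34 (628 genes, Fos-/- over Fos+/+ spleen). The 90th percentile of that difference was 1.24, more than the 2-fold threshold. For GFP spleen over Fos+/+ bone marrow the median was 0.44 and the 90th percentile 1.48. Fos itself read 581 and 607 in the deltaNFAT and GFP arrays, 426 in Fos-/- spleen, 614 in Fos+/+ bone marrow and 848 in Fos+/+ spleen. The stroma has its own Fos and the probes' place relative to the deletion is unknown here, so these readings check no label.

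Blnk varied most of the members. Its mouse gene lies on chromosome 19 from 40928927 to 40994221 (GRCm38.p6), and its promoter window is shown because the gene differed between the Fos genotypes, beside windows of Plcg2 and Syk, whose Fos-/- arrays also all read below both Fos+/+ arrays. The windows are from RefSeq on GRCm38.p6 and run from 250 bases before to 50 after an annotated start. Capitals mark the letters GGAAA (an NFAT core) and GAGGAA (a PU.1 core, which overlaps GGAAA where an A follows), searched on both strands.
Blnk (chr19:40994172-40994471, minus strand): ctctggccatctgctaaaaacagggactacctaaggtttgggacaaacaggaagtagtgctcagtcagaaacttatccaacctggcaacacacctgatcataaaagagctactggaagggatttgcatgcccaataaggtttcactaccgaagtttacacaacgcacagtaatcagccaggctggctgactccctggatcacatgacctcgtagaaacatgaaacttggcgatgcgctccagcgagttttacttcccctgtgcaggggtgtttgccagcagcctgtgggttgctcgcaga
Plcg2 (chr8:117498025-117498324, plus strand): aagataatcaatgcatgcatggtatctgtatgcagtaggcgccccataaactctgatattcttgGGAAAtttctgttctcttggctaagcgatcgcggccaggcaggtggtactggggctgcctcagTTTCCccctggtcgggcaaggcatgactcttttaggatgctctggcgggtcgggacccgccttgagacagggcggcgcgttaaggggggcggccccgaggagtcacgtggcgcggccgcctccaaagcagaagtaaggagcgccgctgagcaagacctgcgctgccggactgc
Syk, the second of its starts (chr13:52596632-52596931, plus strand): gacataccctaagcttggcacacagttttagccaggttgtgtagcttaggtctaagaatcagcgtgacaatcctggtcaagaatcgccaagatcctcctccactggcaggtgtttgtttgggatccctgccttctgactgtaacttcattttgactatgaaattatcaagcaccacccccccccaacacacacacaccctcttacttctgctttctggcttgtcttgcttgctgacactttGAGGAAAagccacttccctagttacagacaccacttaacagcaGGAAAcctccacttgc
The Blnk window held 0 matches of either kind. Plcg2 held 2 of GGAAA, and the Syk window held 2 of GGAAA and 1 of GAGGAA, while the window at the other Syk start had 0 of both. The AP-1 letters TGANTCA were in 0 of the 6 windows that 5 members have in the table. Of 32851 such windows of all genes, 61.3% held GGAAA, 28.3% GAGGAA and 7.81% TGANTCA. A match is a stretch of letters and no evidence of binding, and these short patterns are common.

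**Figure D1:**
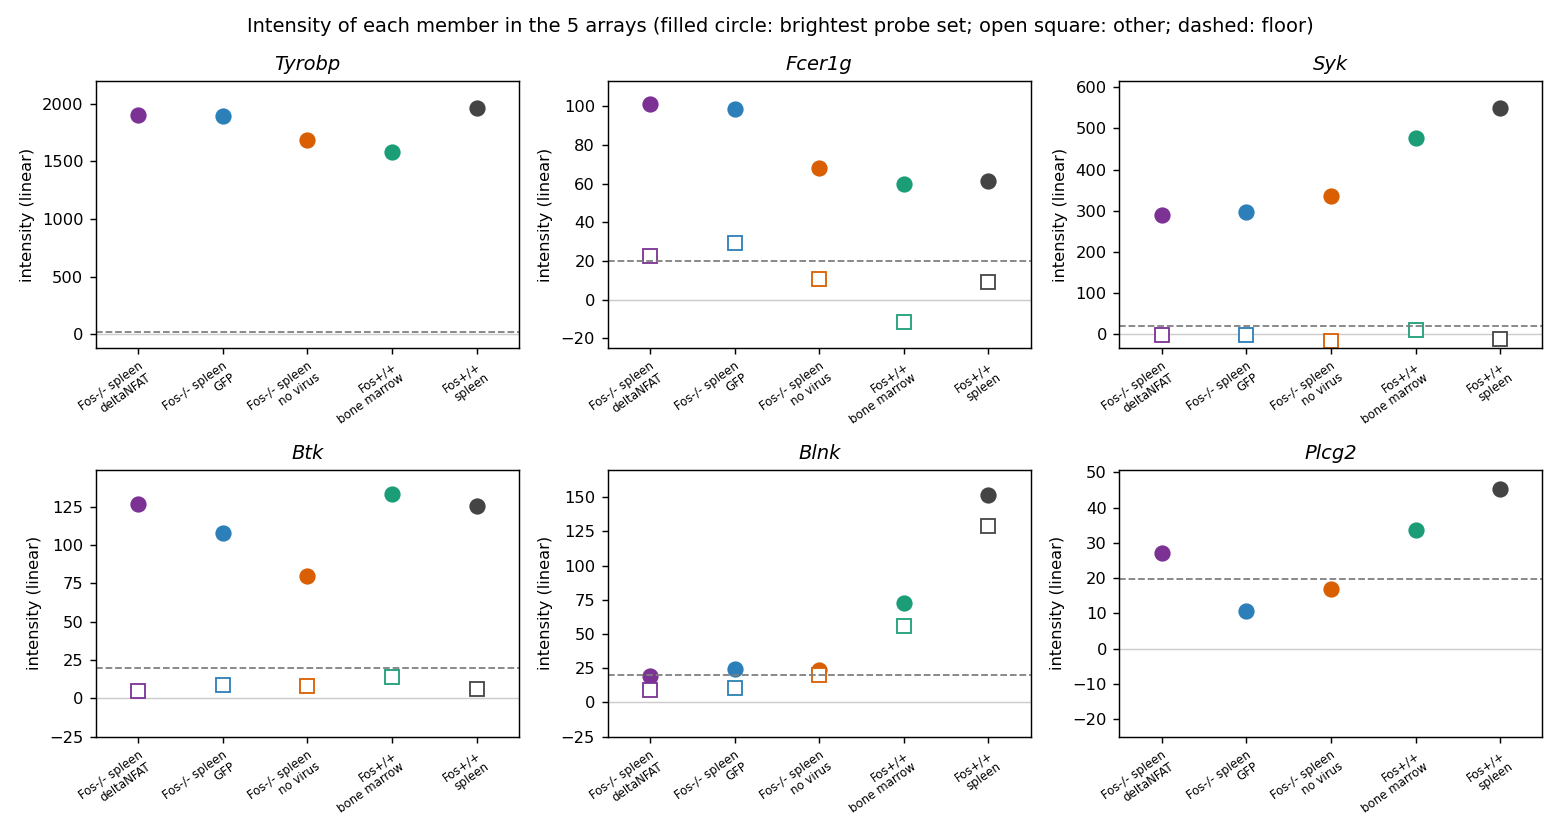
Intensity (linear, vertical axis) of the 6 measured members in the 5 arrays (horizontal axis), with filled circles for the brightest probe set of a gene, open squares for the other one and a dashed line at the floor of 19.8. Blnk reads between 19.3 and 24.5 in the 3 Fos-/- arrays against 72.9 and 152 in the Fos+/+ arrays, and Tyrobp reads between 1581 and 1963 throughout.

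By their brightest probe sets, the 2 ITAM adaptors did not differ by 2-fold in any pair of arrays compared. Tyrobp, which pairs with receptors such as Trem2, read 1907 with deltaNFAT, 1895 with GFP, 1688 in Fos-/- spleen, 1581 in Fos+/+ bone marrow and 1963 in Fos+/+ spleen. Its highest and lowest arrays, both Fos+/+, differed by 1.24-fold, so the genotypes overlapped. Fcer1g, which pairs with Fc receptors and Oscar, read 101 with deltaNFAT, 98.5 with GFP, 68.2 in Fos-/- spleen, 59.6 in Fos+/+ bone marrow and 61.6 in Fos+/+ spleen. Both virus arrays were the highest, and their gap to Fos-/- spleen was 1.48-fold with deltaNFAT and 1.44-fold with GFP, below the threshold. In the same arrays the 8 neutrophil markers summed to 4670 with deltaNFAT and 6877 with GFP against 3164 in Fos-/- spleen. Their sum was 9614 in Fos+/+ bone marrow, where Fcer1g was lowest, and 1369 in Fos+/+ spleen. The part of neutrophils in the Fcer1g difference was not tested. The second Fcer1g probe set was dim and gave 22.8 with deltaNFAT and 29.3 with GFP against 10.6, -11.5 and 9.0 in the arrays without virus. The name of the brighter Fcer1g probe set carries the suffix that Affymetrix gave to sets that can read several related sequences.

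Syk, the kinase that docks on the phosphorylated ITAM, was lower in every Fos-/- array. It read 289 with deltaNFAT, 296 with GFP and 336.5 without virus in Fos-/- spleen cells, against 478 in Fos+/+ bone marrow and 549 in Fos+/+ spleen. The genotypes did not overlap, yet the folds stayed under 2: 1.63-fold lower in Fos-/- than in Fos+/+ spleen and 1.90-fold lower with deltaNFAT than in Fos+/+ spleen. The second Syk probe set lay under the floor in all 5 arrays.

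Btk, the Tec family kinase that acts on Plcg2, read 127 with deltaNFAT, 108 with GFP, 79.9 in Fos-/- spleen, 133 in Fos+/+ bone marrow and 126 in Fos+/+ spleen. The array of Fos-/- spleen without virus was the lowest, 1.57-fold below Fos+/+ spleen, and deltaNFAT lay within the range of the Fos+/+ arrays. Its other probe set was under the floor throughout.

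Blnk, the scaffold that brings Btk to Plcg2, was the member with the widest range. Its brighter probe set read 19.3 with deltaNFAT, 24.5 with GFP and 24.0 without virus in Fos-/- spleen cells, against 72.9 in Fos+/+ bone marrow and 152 in Fos+/+ spleen. The other, designed to the same sequence record, read 9.0 with deltaNFAT, 10.5 with GFP and 19.7 without virus in Fos-/- spleen cells, against 55.5 in Fos+/+ bone marrow and 129 in Fos+/+ spleen. Both probe sets thus gave the same order of the Fos+/+ arrays and no overlap with the Fos-/- arrays. They can share probes, so they are not independent measurements. The bone marrow readings are smaller in size than the 1st percentile of that array (-133), whereas both Fos+/+ spleen readings exceed that of theirs (-90.2).

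Plcg2, the phospholipase at the end of the route, was dim. It read 27.0 with deltaNFAT, 10.7 with GFP and 17.0 without virus in Fos-/- spleen cells, against 33.5 in Fos+/+ bone marrow and 45.3 in Fos+/+ spleen. The order parallels the Fos genotype, but all 5 values are below the noise scale given above.

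Across the 5 arrays, Blnk, Syk and Plcg2 were 3 of 6 members for which all Fos-/- arrays lay below both Fos+/+ arrays. Of all 5567 genes bright enough in at least 1 array, 15.1% did so. For Fcer1g all Fos-/- arrays lay above both Fos+/+ arrays, as for 10.0% of genes, and its virus arrays lay above all arrays without virus, as for 14.0%. Syk was also the 1 member whose virus arrays lay below all arrays without virus, as for 21.1% of genes. The genotype groups mix tissues and viruses, since all virus arrays are Fos-/- and the bone marrow array is Fos+/+, so genotype, tissue and virus cannot be told apart in these counts.

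**Figure D2:**
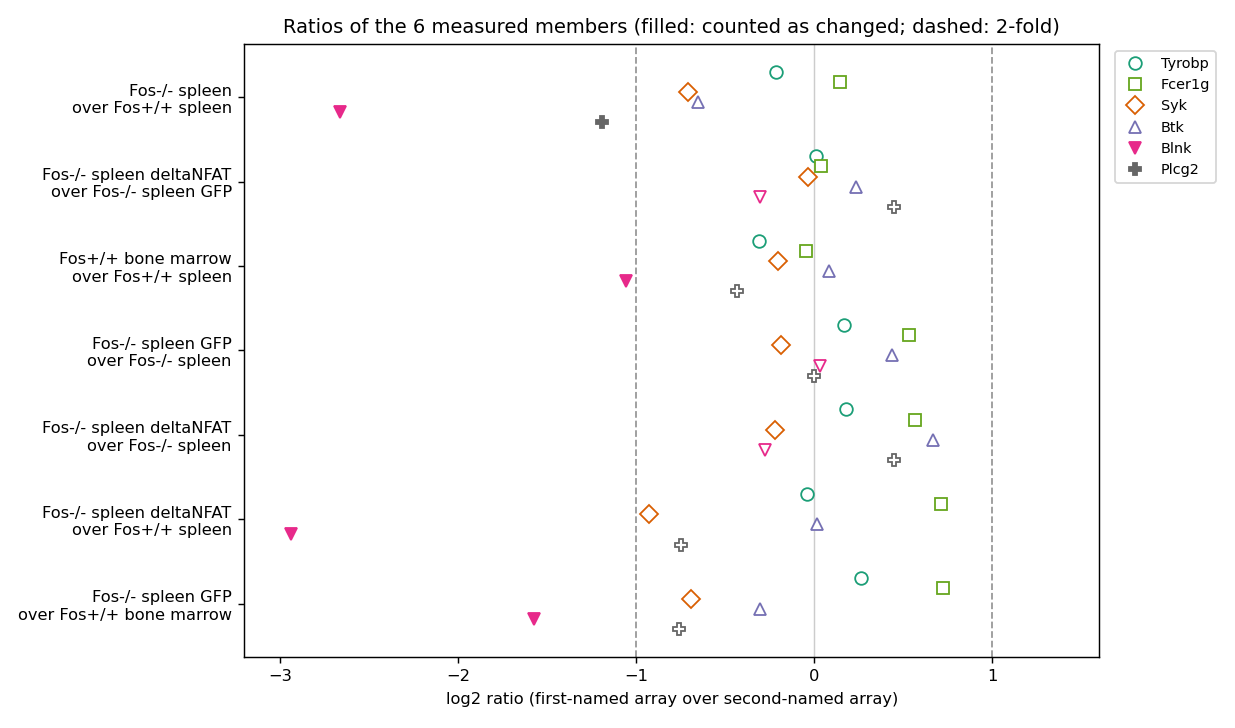
Log2 ratios (horizontal axis) of the 6 measured members in the 7 pairs of arrays (rows), each row giving the first-named array over the second, with filled symbols for genes counted as changed and dashed lines at 2-fold. Blnk lies left of the other members in both comparisons of a Fos-/- spleen array with Fos+/+ spleen, at -2.66 without virus and -2.94 with deltaNFAT.

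Blnk and Plcg2 were lower in the Fos-/- than in the Fos+/+ spleen co-culture. Blnk was 6.33-fold lower in Fos-/- than in Fos+/+ spleen by its brighter probe set and at least 6.51-fold lower by the other. The Fos-/- reading of 24.0 lies within the noise scale of its array (1st percentile -90.7), so the size of this fold is uncertain. With a floor of 38.2 the log2 ratio was -1.99, and with 65.1 it was -1.22, in place of -2.66, and Blnk was still counted as lower. Plcg2 was at least 2.29-fold lower, a call that was lost at a floor of 38.2 (log2 ratio -0.25) and at 65.1 (0.0). Over all genes bright enough, 6.48% were counted as lower and 6.42% as higher, against 2 of 6 members lower, 0 higher and 4 neither. The members' median log2 ratio was -0.68 and that of all genes 0.03. A co-culture array cannot tell fewer cells of a type from less RNA per cell.

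Markers of cell types moved in the same pair of arrays. The 7 measured osteoclast markers summed to 1773 in Fos-/- spleen and 12698.5 in Fos+/+ spleen, and 6 of them were lower, among them the protease Ctsk (46.7-fold) and the phosphatase Acp5 (8.31-fold). The 7 general markers of blood cells summed to 3156 in Fos-/- spleen and 3798 in Fos+/+ spleen, and the 13 macrophage markers to 14140.9 and 9755 in the same order of arrays. Among B cell markers, the B cell receptor chain Cd79a read 52.0 in Fos-/- spleen and 46.6 in Fos+/+ spleen, Cd79b 108 and 116, and Pax5 256 and 263. Cd72 was the 1 of 13 measured B cell markers counted as lower, and Cd22, Vpreb3, Pou2af1 and Blk lay under the floor in all arrays. Of the 9 measured mast cell markers, a cell type that also uses Fcer1g, 5 passed the floor in at least 1 array, and Fcer1a, Kit, Cpa3 and Mcpt2 did not. The sum of those above the floor was 227.5 in Fos-/- spleen and 412 in Fos+/+ spleen. The protease Mcpt1, part of that sum, was 4.42-fold lower, at 56.8 in Fos-/- spleen and 251 in Fos+/+ spleen. Its probe set carries a suffix for sets that can read several related sequences. The second Mcpt1 probe set lay under the floor in both arrays (-19.9 and -7.8). The part of these markers' cells in the lower Blnk and Plcg2 was not tested.

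No member was counted as higher or lower between the deltaNFAT and GFP arrays. Blnk read 19.3 with deltaNFAT and 24.5 with GFP, a log2 ratio of -0.31 computed at the floor. Plcg2, at 27.0 with deltaNFAT and 10.7 with GFP, was at least 1.36-fold higher. Btk was 1.18-fold higher, and Tyrobp, Fcer1g and Syk differed by 1.03-fold or less. Blnk and Plcg2 were too dim here to be counted, whatever the size of their difference. Of the 6 members 4 were bright enough, and 0 were counted either way, where 3.54% of all genes were counted as higher and 2.58% as lower. In the same pair Nfatc1 read 82.7 with deltaNFAT and 23.4 with GFP, 3.53-fold higher, and Ctsk was 4.69-fold higher. Blnk lay near the floor in an array where Nfatc1 and Ctsk were counted as higher. Ctsk there read 372, against 2862 in Fos+/+ spleen, and a small change in Blnk could lie under the floor unseen. Whether Blnk follows Nfatc1 cannot be read from this pair. Whether the Nfatc1 probe set also reads the deltaNFAT construct is unknown here.

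Set against Fos+/+ spleen, the deltaNFAT array had Blnk at least 7.67-fold lower, the 1 member counted as lower, with 0 higher (9.20% and 14.2% of all genes). Its log2 ratio there was -2.94, and -1.99 and -1.22 with floors of 38.2 and 65.1. Nfatc1 read 82.7 with deltaNFAT and 751 in Fos+/+ spleen. The other members lay within 2-fold, from Syk (1.90-fold lower) to Fcer1g (1.64-fold higher). Set against Fos-/- spleen without virus, 0 members were counted, with 11.0% of all genes higher and 6.66% lower. Btk had the largest of these ratios, at 1.59-fold higher with deltaNFAT.

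A second pair of Fos-/- and Fos+/+ arrays, GFP spleen over bone marrow, shares no array with the first but differs in tissue and virus. Blnk was 2.98-fold lower with GFP than in Fos+/+ bone marrow by its brighter probe set and at least 2.80-fold lower by the other. It was the 1 member of 5 bright enough that was counted as lower, with 0 higher, where 9.23% of genes were lower and 5.97% higher. This call was lost at the floor of 38.2 (log2 ratio -0.93) and at 65.1 (-0.16), since the bone marrow value is 72.9. Syk was 1.61-fold lower and Plcg2 at least 1.69-fold lower, while Fcer1g was 1.65-fold higher and Tyrobp differed by a log2 ratio of 0.26.

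Between the 2 Fos+/+ sources, Blnk was 2.08-fold lower in bone marrow than in spleen by its brighter probe set and 2.32-fold lower by the other. It was the 1 member counted (7.18% of genes lower, 13.2% higher). In the same pair 8 of 8 neutrophil markers were higher in bone marrow, with a sum of 9614 in bone marrow and 1369 in spleen. Of 13 macrophage markers 3 were higher and 0 lower, among them the receptors Mrc1 (10.3-fold) and Msr1 (5.89-fold), with sums of 12123 in bone marrow and 9755 in spleen. Their part in the Blnk difference was not tested. Nfatc1 was also lower in bone marrow, at 325 against 751 in spleen, whereas Ctsk read 2495 and 2862 in the same order. Syk, Btk, Tyrobp and Fcer1g differed by 1.24-fold or less. Between GFP virus and no virus in Fos-/- spleen 0 members were counted (10.3% of genes higher, 7.06% lower), with Fcer1g at 1.44-fold and Btk at 1.35-fold higher.

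**Figure D3:**
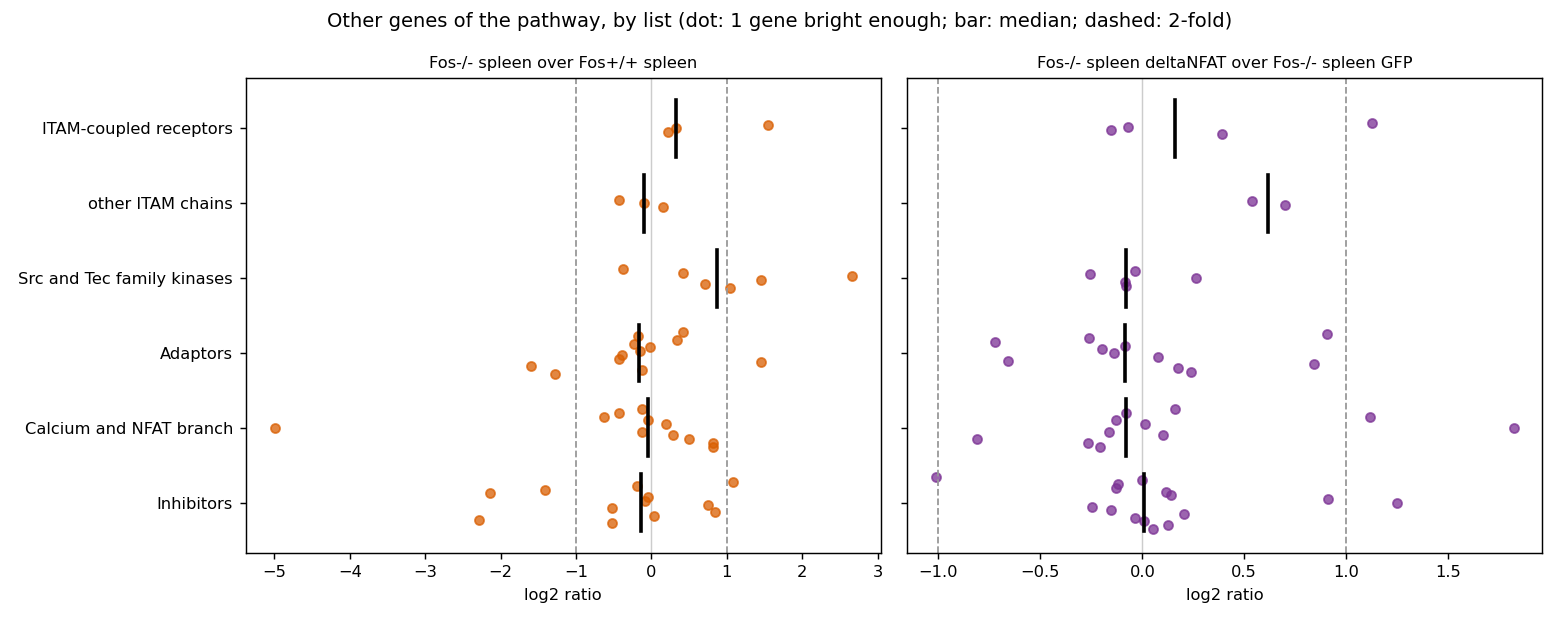
Log2 ratios (horizontal axis) of the other genes of the route in 6 lists (rows), for Fos-/- over Fos+/+ spleen on the left and deltaNFAT over GFP on the right; dots are genes bright enough, black bars list medians and dashed lines 2-fold. Nfatc1 is the leftmost dot on the left (-5.00) and the rightmost on the right (1.82), and most other dots lie inside the dashed lines.

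The wider route was followed through 6 lists of receptors, ITAM chains, kinases, adaptors, calcium and NFAT genes, and inhibitors, 77 genes measured together. In Fos-/- over Fos+/+ spleen 47 were bright enough, and 6 were higher, 6 lower and 35 neither, where 6.42% of all genes were higher and 6.48% lower. The median log2 ratio was -0.05, beside 0.03 for all genes. Among 17 measured adaptors the scaffold Lcp2 (SLP-76), the close relative of Blnk in T cells and platelets, read 92.9 in Fos-/- spleen and 225 in Fos+/+ spleen, 2.42-fold lower. Lat2, a membrane scaffold that binds Grb2, was 3.02-fold lower, and its second probe set at least 1.97-fold lower. The docking protein Gab1 was at least 2.75-fold higher, though its other probe set gave 1.13-fold. Its higher reading, 54.4 in Fos-/- spleen, lies within the noise scale of that array. Sh3bp2, a Syk-binding adaptor, read 71.7 in Fos-/- spleen and 93.8 in Fos+/+ spleen (chosen after its values were seen).

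Kinases and inhibitors differed in both directions. The Src family kinases Fyn (2.06-fold) and Yes1 (2.74-fold) were higher in Fos-/- than in Fos+/+ spleen, and of 6 kinases bright enough, among 11 measured, 3 were higher, 0 lower and 3 neither (6.42% and 6.48% of all genes were higher and lower). Zap70, the T cell relative of Syk, was 6.32-fold higher by its brightest probe set, with log2 ratios of -0.10 and 0.0 from the other two. Of the 9 measured T and NK cell markers 5 passed the floor in at least 1 array, summing to 477.5 in Fos-/- spleen and 151 in Fos+/+ spleen. That sum includes Zap70 and Klrd1 themselves, so it is no separate measure. In the same order of arrays Cd4 read 167 and 25.0, Gzmb 62.6 and 42.4, and Cd247 14.9 and 35.3. Cd3d, Cd3e, Cd3g and Cd8a were under the floor in all arrays. The part of T and NK cells in these differences was not tested. Src, Blk, Bmx and Txk were under the floor in all arrays. Of 12 bright genes of the inhibitor list, the phosphatase genes Ptpn22 (at least 4.89-fold) and Ptpre (2.67-fold) and the receptor Cd72 (4.40-fold) were lower. Pag1 was at least 2.11-fold higher, with a Fos-/- spleen reading of 41.7 that lies within the noise scale of that array. The second probe sets of Ptpn22 and Pag1 lay under the floor in both arrays. Ptpn6 (SHP-1), the main phosphatase bound by inhibitory receptors, read 256 in Fos-/- spleen and 367 in Fos+/+ spleen.

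In the calcium branch Nfatc1 alone of 11 bright genes was counted as lower in Fos-/- spleen, 32.0-fold, with 0 higher. Nfatc2, Ppp3ca (a calcineurin catalytic subunit), Ppp3r1 (its regulatory subunit) and Plcg1 were not counted, with Plcg1 at 200 in Fos-/- spleen and 114 in Fos+/+ spleen. Of receptors that couple to the ITAM adaptors only 7 of 22 listed were measured. The killer cell receptor chain Klrd1 was 2.92-fold higher in Fos-/- spleen, and Fcgr1 and Fcgr3, which pair with Fcer1g, were within 2-fold. The Klrd1 readings, 68.6 in Fos-/- spleen and 23.5 in Fos+/+ spleen, lie within the noise scale of their arrays. Among the other ITAM chains 0 of 3 bright enough were counted, and Cd3d, Cd3e and Cd3g were under the floor in all arrays.

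With deltaNFAT over GFP, 4 genes of the 77 were higher and 1 lower, of 48 bright enough, where 3.54% of all genes were higher and 2.58% lower. The median log2 ratio was -0.02 (all genes 0.00). The higher ones were Nfatc1, the calcineurin regulator Rcan1 (2.17-fold), the inhibitory Fc receptor Fcgr2b (2.38-fold) and Klrd1 (at least 2.19-fold). Klrd1 read 43.3 with deltaNFAT, within the noise scale of that array. The adaptor Sla, which damps receptor signalling, was 2.02-fold lower. For Fcgr2b the deltaNFAT array gave 203, the GFP array 85.3 and the Fos-/- array lacking virus 28.0, and it was under the floor in both Fos+/+ arrays. The Fcgr2b probe set carries a suffix for sets that can read several related sequences.

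**Figure D4:**
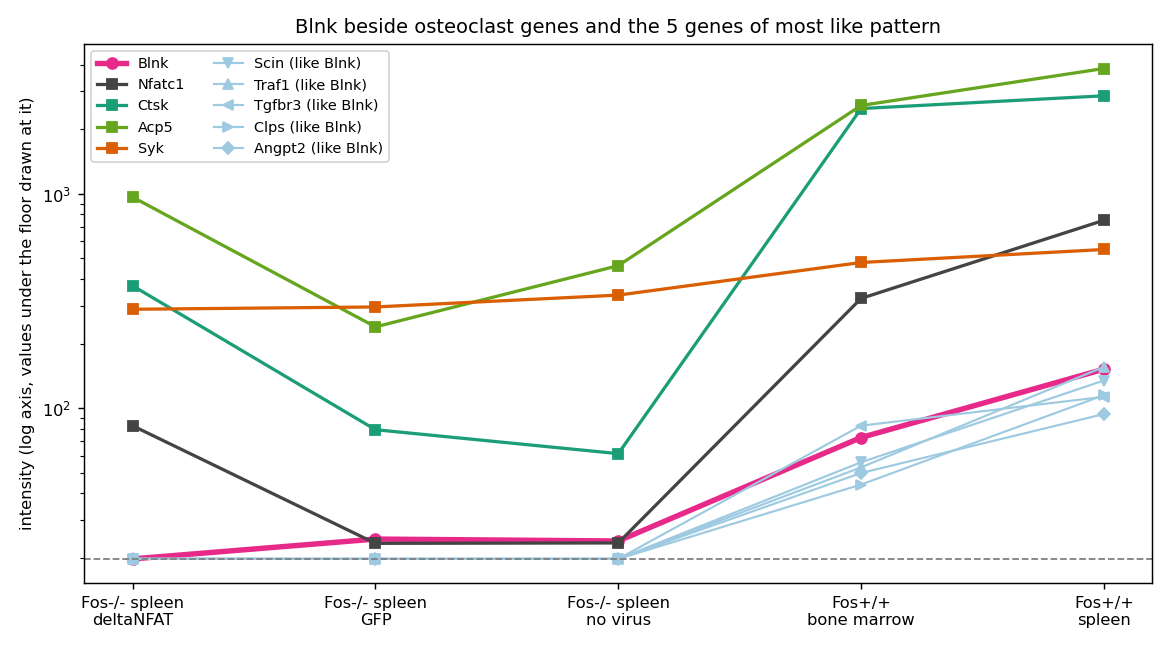
Intensity (log axis, values under the floor drawn at it, dashed line at 19.8) in the 5 arrays of Blnk (thick line), Syk, the osteoclast genes Nfatc1, Ctsk and Acp5, and the 5 genes whose pattern was most like Blnk (thin lines). In the deltaNFAT array Nfatc1 reads 82.7 and Ctsk 372, and Blnk lies at the floor.

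Genes with a pattern like Blnk were sought over the 5 arrays as the smallest root mean square difference of centred log2 values, among 1818 other genes that reached 79.2 in at least 1 array and ranged over 2-fold or more. Blnk was the 1 member in that pool. The nearest were the actin-severing protein gene Scin (0.13), the signalling adaptor Traf1 (0.19), the TGF-beta co-receptor Tgfbr3 (0.22), the pancreatic colipase Clps (0.235) and angiopoietin 2, Angpt2 (0.24). Scin read 55.9 in Fos+/+ bone marrow and 134 in Fos+/+ spleen, and Traf1 52.9 in bone marrow and 156 in spleen. All 5 were under the floor in the 3 Fos-/- arrays, where values below the floor count as equal, so their likeness to Blnk rests mainly on the 2 Fos+/+ arrays.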

How the data were processed

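The 5 samples, grouped by their titles, were mouse co-cultures with 1 one-colour array each. The deposited values are linear intensities, 1 for each probe set of an array. No source used here names the software behind them. The numbers themselves show scaling and background subtraction: trimmed by 2% at each end, every array averaged about 100.1, and 20.3 to 22.4% of an array's values were at or below 0. Arrays were rescaled to an equal trimmed mean, with factors of about 1, readings under the 40th percentile of all values (19.8) were raised to that floor, and the log2 scale followed. Of 12488 probe sets 10855 carried 1 gene symbol in the platform annotation, 396 several and 1237 none, and the 66 control probe sets were left out. A gene was represented by its probe set with the highest mean over the 5 arrays, while all probe sets of the members are given. Thresholds for counts are in the report.

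Members, gene lists and counting rules were chosen with earlier results of these data known. The rule for named genes took all members, Nfatc1 and Fos, every list gene counted in Fos-/- over Fos+/+ spleen or in deltaNFAT over GFP, up to 4 per list elsewhere, and the 5 genes most like a member. Other genes named for context (among them Pax5, Ptpn6, Plcg1, Nfatc2, Ppp3ca, Ppp3r1, Fcgr1 and Fcgr3) were chosen after their values were seen. Promoter windows and positions came from RefSeq (GRCm38.p6), used for no array value. The counting procedure was tested on simulated data, with changes planted only in genes that read 79.2 or above in Fos-/- spleen. The test does not cover genes dimmer in that array, such as Blnk and Plcg2. Python 3.11.15, numpy 2.4.6 and pandas 2.3.3 were used. The number of arrays limits the precision.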

Additional observations from a re-analysis of the deposited data

How the results depend on the processing

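No paired analysis was possible because each group has 1 array, and for the same reason no array could be left out of a group. The members' counts were unchanged with values as deposited, with quantile normalization, with the mean of all probe sets and with unsuffixed probe sets, and counts over all genes stayed within 1.5 times there. The floor at the 20th percentile was not run, since it is -1.2 and has no log. Of 336 values of single members under the alternatives, 321 kept their call, 7 lost it and 8 gained it, and 0 reversed. Most of those kept were counted as neither before and after, so this total says little about the few calls made. The values as deposited could hardly differ, since the scaling factors were about 1. In Fos-/- over Fos+/+ spleen the count of lower members was 1 at floors of 38.2 and 65.1 and at 3-fold, and 4 at 1.5-fold (Blnk, Plcg2, Syk and Btk). In GFP over Fos+/+ bone marrow it was 0 at both floors and at 3-fold and 2 at 1.5-fold, with 1 higher. In bone marrow over spleen it was 0 at 3-fold. At 1.5-fold 1 member was higher in deltaNFAT over Fos-/- spleen, and 1 higher and 3 lower in deltaNFAT over Fos+/+ spleen. Changing the fold or the floor changes by construction how many genes can pass.

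Counts over all genes, higher then lower, moved with the fold and the floor. For Fos-/- over Fos+/+ spleen they were 321 and 324, with 771 and 661 at 1.5-fold, 86 and 111 at 3-fold, 211 and 218 at the floor of 38.2 and 125 and 139 at 65.1. For deltaNFAT over GFP they were 178 and 130, with 425 and 323, 62 and 35, 90 and 65, and 37 and 21 under the same settings. For bone marrow over spleen they were 696 and 380, with 1233 and 846, 261 and 125, 452 and 245, and 264 and 146. For GFP over Fos-/- spleen they were 528 and 361, with 895 and 877, 213 and 102, 366 and 210, and 235 and 106. For deltaNFAT over Fos-/- spleen they were 569 and 345, with 956 and 863, 242 and 101, 406 and 224, and 243 and 129. For deltaNFAT over Fos+/+ spleen they were 740 and 479, with 1165 and 1066, 320 and 170, 540 and 335, and 339 and 231. For GFP over Fos+/+ bone marrow they were 314 and 485, with 670 and 1048, 95 and 137, 198 and 279, and 114 and 143.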

Other observations

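The B cell receptor chains Cd79a and Cd79b read lower in both virus arrays, in Fos-/- spleen cells, than in all arrays without virus. Of all genes bright enough in at least 1 array, 21.1% did so. Cd79b read 44.6 with deltaNFAT and 27.5 with GFP, against 108 in Fos-/- spleen without virus, 131 in Fos+/+ bone marrow and 116 in Fos+/+ spleen. Cd79a was under the floor in both virus arrays and read 52.0 in Fos-/- spleen, 63.3 in bone marrow and 46.6 in Fos+/+ spleen. All Cd79a readings lie within the noise scale of their arrays (the size of the 1st percentile). So do those of Cd79b in the virus and bone marrow arrays. The heavy chain gene Ighm went the other way, with 603 under deltaNFAT and 826 under GFP, against 278 in Fos-/- spleen without virus. Its probe set carries a suffix for sets that can read several sequences.

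Several genes of the inhibitor list were higher in both virus arrays than in Fos-/- spleen without virus. The list also holds phosphatases, among them Ptprc and Ptpre, that do not act only as inhibitors. Of 15 bright genes of this list 6 were higher with deltaNFAT and 5 with GFP, and 0 were lower in either. Over all genes 11.0% were higher and 6.66% lower with deltaNFAT, and 10.3% higher and 7.06% lower with GFP. The list's median log2 ratios were 0.82 with deltaNFAT and 0.43 with GFP, beside -0.09 and -0.11 for all genes. The phosphatase Ptprc (CD45) was at least 6.05-fold higher with deltaNFAT and at least 5.49-fold higher with GFP, and Pag1 was 2.26-fold higher with each. Both comparisons share the array without virus, where Ptprc lay under the floor. High readings of Ptprc and Pag1 were not confined to the virus arrays. In Fos+/+ bone marrow, without virus, Ptprc read 80.5 and Pag1 58.5, against 0.5 and 19.8 in Fos+/+ spleen. These bone marrow readings are smaller in size than the 1st percentile of that array (-133). Fcgr2b, by contrast, was under the floor in both Fos+/+ arrays. Ptprc is also one of the 7 general blood cell markers, of which it was the 1 counted as higher in either comparison. Some macrophage and neutrophil markers were higher in the same comparisons. The macrophage list as a whole was not, with median log2 ratios of 0.002 with deltaNFAT and 0.037 with GFP. Those of the neutrophil list were 0.43 and 1.02 in the same order. The macrophage marker Marco read 516 with deltaNFAT and 609 with GFP, against 761 in Fos-/- spleen without virus. Of 13 macrophage markers 3 were higher with deltaNFAT and 2 with GFP, among them Mrc1 (5.33-fold with deltaNFAT, 4.88-fold with GFP) and Msr1 (5.07-fold and 4.47-fold in the same order). Of 8 neutrophil markers 2 were higher with deltaNFAT and 4 with GFP, among them S100a9 (2.59-fold and 3.66-fold) and Mpo (at least 4.17-fold and at least 4.02-fold). The part of these cells in the difference of the inhibitor list was not tested.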
